A study of Mus musculus with 10 samples.

Results

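The immunoglobulin genes described here are the constant, variable, diversity and joining segments of the heavy, kappa and lambda chains, together with Jchain, the gene of the joining protein of polymeric antibodies. Members were chosen by gene symbol: every probe set named Ighv, Ighd, Ighj, Ighg, Igkv, Igkj, Iglv, Iglj or Iglc with any suffix, plus Igha, Ighm, Ighe, Igkc and Jchain. This gave 215 of 24704 named genes, namely 94 heavy, 102 kappa and 3 lambda variable segments, 6 joining segments, 1 diversity segment, 8 constant-region genes and Jchain. They were measured on 10 Affymetrix arrays of cells isolated as liver sinusoidal endothelial cells, the fenestrated cells lining the hepatic sinusoids. Donors were female C57BL/6N mice, 10 weeks old at the start and fed for 10 weeks either the CDAA diet (31% of calories as fat, 1% cholesterol) or a control diet labelled Std. There were 5 arrays per diet, each from a pool of 3 livers whose cells had been captured with CD146 beads. Endothelial Gata4 knockout mice are named in the series' design text but in no sample label, and are not analysed here. A label field gives the treatment as 10 days whereas titles and protocols give 10 weeks, and the latter is used.

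An antibody is built from paired heavy and light chains. In each developing B cell, recombination joins variable, diversity and joining segments into one heavy chain exon and variable and joining segments into one light chain exon, so that each B cell clone uses few of the many variable segments. The constant-region gene sets the class of the antibody, such as IgM, IgG or IgA, and plasma cells, the antibody-secreting descendants of B cells, hold immunoglobulin transcripts at very high levels. IgA made in the intestine reaches bile and lumen bound to the J chain and carried across epithelium by the polymeric immunoglobulin receptor. Sinusoidal endothelium is not known as a source of antibody.

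Values are log2 signals made by robust multi-array average, and changes are given as CDAA minus Std on that scale. "Rose" and "fell" are used of genes with a Benjamini-Hochberg adjusted p under 0.05 over all 24704 genes in limma, a linear model with moderated variance. The markers of sinusoidal endothelium were high on all arrays, with a list mean of 10.35 to 11.33 with CDAA and 11.51 to 11.68 with Std. CDAA 1 and CDAA 3 were the lowest of all arrays in that list. The median signal of the gene means was 3.88. Only 64 of the 215 immunoglobulin genes had a mean above it, and 151 lay below, where signal was not known to exceed background. Segments of one family can be nearly identical in sequence, so the signal of single variable segments is uncertain. In a bulk isolate, more cells of a type and more RNA per cell cannot be told apart.

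With the CDAA diet, 19 immunoglobulin genes rose and 0 fell. The risen genes were the constant-region genes of IgA, of IgM and of the kappa light chain, Jchain, 4 joining segments and 11 variable segments. This was 8.84% of the members. The background was 7.49% of all genes that rose and 9.13% that fell by limma (16.6% in either direction). Over all signal levels together, the share of risen members was thus close to that of all genes in this fit. With the replicate numbers taken as pairs of arrays, 32 of 215 members rose, against 1893 of 24704 genes. No label gives such pairs. Above the median signal, 17 of 64 members rose (26.56%), against 12.96% of all genes above it. Below the median signal, 2 of 151 members rose (1.32%), against 2.02% of all genes below it. The difference between these shares was not tested. At an unadjusted p of 0.05, 40 members were higher (18.6%, against 12.16% of all genes) and 1, the diversity segment Ighd6-2, was lower. In either direction this was 19.1% of the members, against 28.3% of all genes. The median change was 0.19 over the members and -0.02 over all genes, and 160 members (74.4%) had a higher mean with CDAA, against 46.3% of all genes. All 5 CDAA arrays lay above all 5 Std arrays for 11 members (5.12%), against a background of 6.16%. Above the median signal this held for 10 of 64 members, against 1309 of 12352 genes. Below it, this held for 1 of 151 members, against 212 of 12352 genes. The classes differed in these counts. Of 8 constant-region genes, 3 rose (37.5%) with a median change of 0.98, and of 199 variable segments, 11 rose (5.53%) with a median change of 0.17. Of 6 joining segments, 4 rose with a median change of 1.09. The classes also differed in signal. Above the median signal were 6 of 8 constant-region genes and 6 of 6 joining segments, but 51 of 199 variable segments. Of these 51 segments 9 rose (17.65%), with a median change of 0.49. No test of the difference between the classes was made, and the part of signal level in it was not tested. Without CDAA 1 and CDAA 3, 10 members rose (4.65%, against a background of 5.28%), of which 9 had also risen with all arrays.

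**Figure D1:**
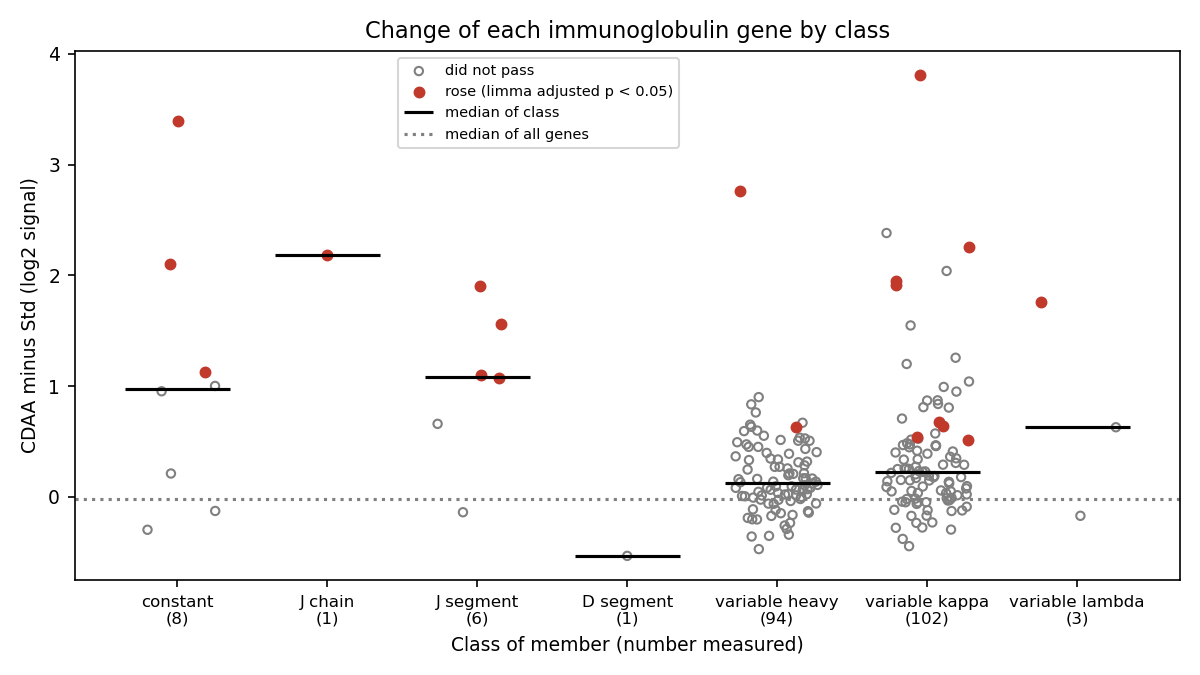
CDAA minus Std difference in log2 signal for each of the 215 immunoglobulin genes, by class, with the number measured in parentheses; filled points rose in limma, black lines are class medians and the dotted line is the median of all genes. Igkv1-88 (3.81) and Igha (3.40) are the highest points, and most variable segments lie near the median of all genes.

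Igha, the constant region of the IgA heavy chain, had log2 signals of 9.72, 8.87, 10.28, 8.64 and 8.59 in CDAA 1 to CDAA 5 and of 6.64, 5.38, 6.08, 5.40 and 5.64 in Std 1 to Std 5. Every CDAA array was thus above every Std array by a wide margin, with CDAA 3 and CDAA 1 the highest. The means were 9.22 ± 0.75 and 5.83 ± 0.53 (SD, n = 5), a rise of 3.40 ± 0.34 (SE, limma adjusted p = 8.61e-05), or 10.5-fold in signal. It was 2.88 without CDAA 1 and CDAA 3.

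Igkc, the constant region of the kappa light chain that most mouse antibodies carry, had signals of 11.39, 10.71, 11.72, 10.36 and 10.64 with CDAA and 9.40, 8.15, 9.73, 8.46 and 8.53 with Std. The diets did not overlap, and CDAA 3 and CDAA 1 were again highest, as were Std 3 and Std 1 within Std. The rise was 2.11 ± 0.33 (SE, limma adjusted p = 0.00121), from 8.86 ± 0.67 to 10.96 ± 0.57 (SD, n = 5), and 1.71 without CDAA 1 and CDAA 3. Ighm, the constant region of IgM, which naive B cells carry on their surface, was at 9.41, 8.65, 9.84, 8.64 and 8.54 with CDAA and at 8.43, 7.21, 8.25, 7.80 and 7.73 with Std. The highest Std array came close to the lowest CDAA array. Ighm rose by 1.13 ± 0.28 (SE, limma adjusted p = 0.0164), 2.19-fold in signal, but did not pass without CDAA 1 and CDAA 3 (0.73, limma adjusted p = 0.0804).

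Jchain, whose product links IgA or IgM units into polymers, had signals of 6.41, 5.00, 7.10, 5.32 and 4.88 with CDAA and 3.97, 2.74, 4.32, 2.99 and 3.74 with Std. Both diets kept the order seen for Igkc at the top, with CDAA 3 and Std 3 highest. The rise was 2.19 ± 0.43 (SE, limma adjusted p = 0.00506). Of the Std signals, 3 lay below the median of the gene means, so the size of the change is uncertain. It was 1.51 without CDAA 1 and CDAA 3. By two-sided exact permutation of the diets (252 arrangements), Igha, Igkc and Jchain each had p = 0.00794, the smallest that 5 against 5 arrays can give. Every gene without overlap between the diets gets this unadjusted p, so it adds nothing to the lack of overlap. Of all genes, 6.16% lay without overlap with CDAA above and 7.73% with CDAA below.

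The promoter of Jchain is shown because it is the only one of the members' promoters in the RefSeq-derived table used (GRCm38.p6, chr5:88527848-88528147, minus strand), which spans 250 bases before the transcript start to 50 after it. Capitals mark the letters of an E-box, CACCTG.
Jchain promoter: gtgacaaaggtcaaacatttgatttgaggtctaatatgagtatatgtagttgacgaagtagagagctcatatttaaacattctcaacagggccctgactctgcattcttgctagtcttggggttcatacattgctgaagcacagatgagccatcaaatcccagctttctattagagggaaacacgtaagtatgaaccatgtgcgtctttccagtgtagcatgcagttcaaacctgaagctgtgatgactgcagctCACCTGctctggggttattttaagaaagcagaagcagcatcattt
Motifs were searched on both strands. The E-box letters CAGGTG or CACCTG occurred 1 time here, after the start, and in 20.2% of the 32851 promoters of the table. The octamer ATTTGCAT, the element shared by immunoglobulin promoters, was not in this window and was in 1.74% of promoters. Nor were TATAAA (13.6% of promoters) or GAGGAA (28.3%) in it. Overlap between motifs was not removed, and a match or its lack is a description of the letters only.

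The rise was unequal among the constant-region genes. Pairs of Igha, Jchain, Igkc and Ighm, the members of this class that rose, were compared through their log2 difference within each array. The difference of Igha minus Ighm was between -0.0020 and 0.44 on the CDAA arrays and between -2.41 and -1.79 on the Std arrays. It was higher with CDAA by 2.26 (two-sided exact permutation p = 0.00794, 0.00952 after adjustment over 6 pairs). Igha also gained on Igkc, by 1.29, and on Jchain, by 1.21, and Jchain and Igkc gained on Ighm, by 1.05 and 0.97, each with the same exact p and without overlap of the diets. Only Jchain minus Igkc, at -5.22 ± 0.50 with CDAA and -5.30 ± 0.29 with Std (SD, n = 5), did not pass (difference 0.080, exact p = 0.746). Signals of different probe sets differ in their range, so these values show unequal change in signal and not the ratio of transcripts. With Jchain this dim in Std, its pairs do not show whether its transcript changed less than that of Igha or as much as that of Igkc.

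**Figure D2:**
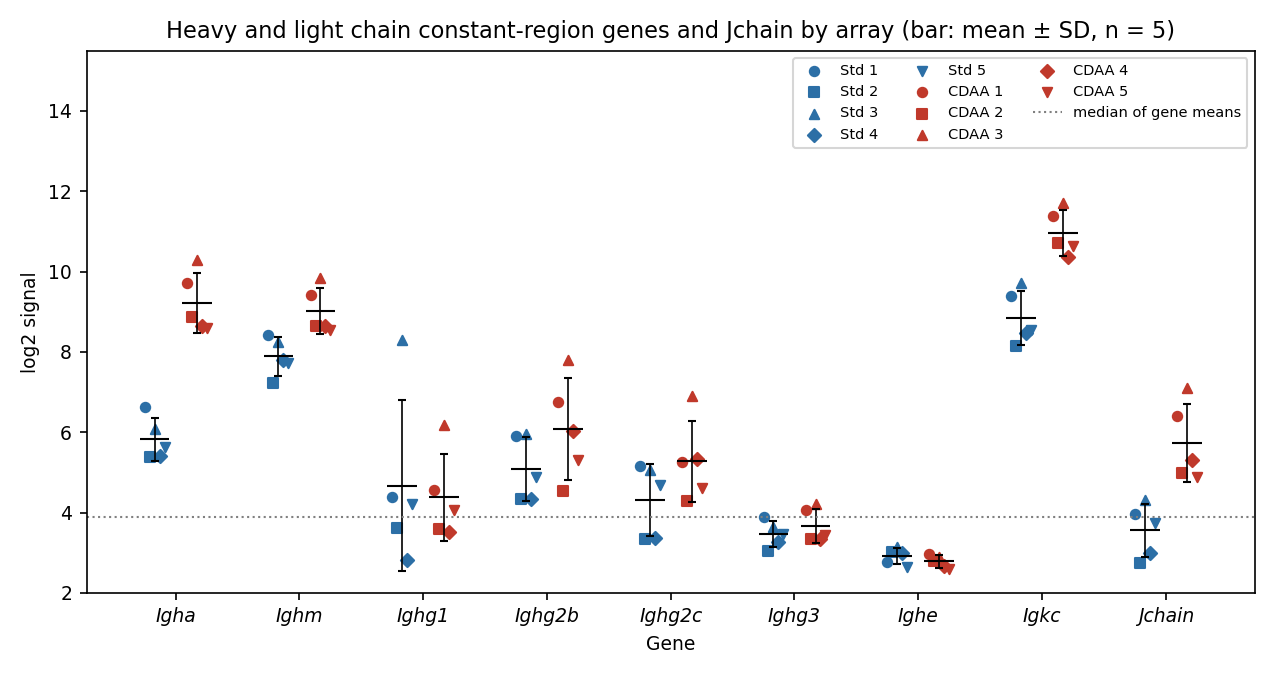
Log2 signal of the 8 constant-region genes and Jchain on each array, with Std in blue and CDAA in red; horizontal bars are means and error bars are SD (n = 5), and the dotted line is the median of the gene means. Igha, Ighm, Igkc and Jchain do not overlap between diets, whereas the IgG genes do, and Ighg1 is highest in Std 3 (8.30).

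The constant regions of the IgG subclasses and of IgE did not pass. Ighg2b was at 6.76, 4.53, 7.80, 6.04 and 5.30 with CDAA and 5.91, 4.34, 5.95, 4.33 and 4.90 with Std, a difference of 1.00 ± 0.55 (SE, limma adjusted p = 0.267). Ighg2c differed by 0.95 ± 0.50 (limma adjusted p = 0.240), with CDAA 3 at 6.90 and the other CDAA arrays at 4.28 to 5.33. For both genes the diets overlapped.

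Ighg1 was at 4.55, 3.58, 6.17, 3.51 and 4.06 with CDAA and 4.39, 3.62, 8.30, 2.82 and 4.22 with Std. The value of Std 3 was the highest of the 10 by far. The difference of -0.30 ± 0.87 (limma adjusted p = 0.876) became 0.61 without Std 3 and did not pass either way. Ighg3 differed by 0.21 and was between 3.05 and 4.21 on all arrays. Ighe, the heavy chain of IgE, differed by -0.13, and its signals of 2.59 to 3.14 were below the median of the gene means on every array.

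Among variable segments, 148 of 199 (74.4%) had a higher mean with CDAA. Over all signal levels together, the share that rose was close to the 7.49% of all genes for kappa segments and lower for heavy segments. Above the median signal, 9 of 51 variable segments rose (17.65%), against 12.96% of all genes above it. Below the median signal, 2 of 148 variable segments rose (1.35%), against 2.02% of all genes below it. Of 102 kappa segments 8 rose (7.84%), of 94 heavy segments 2 rose (2.13%), and of 3 lambda segments Iglv1 rose. In 32 of 38 families no member rose, including the heavy family Ighv1 with 47 measured segments, whose changes lay between -0.35 and 0.90. Family Igkv4 had 4 risen of 26 and family Igkv1 had 3 risen of 11. None of the 14 variable segments that RefSeq lists as pseudogenes rose in limma, with 1 at an unadjusted p under 0.05 and a median change of 0.06. The 185 others had a median change of 0.20, and 11 of them rose (5.95%). Only 2 of the 14 pseudogenes had a mean above the median signal, against 49 of the 185. Low signal and pseudogene status therefore cannot be told apart here. RefSeq held a gene record for all 215 members.

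Igkv1-88 showed the sharpest rise of any member. Its signals were 6.69, 9.33, 7.04, 7.56 and 6.60 with CDAA and 4.45, 3.42, 3.53, 3.30 and 3.48 with Std. CDAA 2, and not CDAA 1 or CDAA 3, was the highest array. The rise was 3.81 ± 0.45 (SE, limma adjusted p = 0.000214), and 4.20 without CDAA 1 and CDAA 3. The heavy segment Ighv4-1 had the same array on top, with signals of 4.55, 8.15, 5.00, 5.70 and 3.86 with CDAA and 2.91, 2.32, 3.31, 2.70 and 2.24 with Std. It rose by 2.76 ± 0.62 (SE, limma adjusted p = 0.00994). The next largest change of a heavy variable segment was 0.90. The measured neighbours of both in their loci did not pass: Igkv12-89 and Igkv13-87 differed by 0.25 and 0.18 beside Igkv1-88, and Ighv14-1 and Ighv3-1 by -0.34 and 0.53 beside Ighv4-1.

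Igkv2-109 was at 5.75, 4.41, 6.46, 6.12 and 5.58 with CDAA and in a narrow band of 3.60 to 3.83 with Std. It rose by 1.95 ± 0.29 (SE, limma adjusted p = 0.000985), with CDAA 2 the lowest CDAA array. Its measured neighbour Igkv1-110 was at 7.16, 4.30, 8.27, 5.91 and 6.46 with CDAA and 4.81, 3.81, 5.33, 3.76 and 3.10 with Std, a rise of 2.26 ± 0.63 (limma adjusted p = 0.0284) in which CDAA 2 lay among the Std arrays. These were the only risen variable segments that were next to each other among those measured. Igkv1-135 and Iglv1, a lambda segment, rose by 1.91 ± 0.55 and 1.76 ± 0.53 (limma adjusted p = 0.0327 and 0.0385), and in both, too, CDAA 3 and CDAA 1 were highest and CDAA 2 was the lowest CDAA array.

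The other risen variable segments changed by less than 1. Igkv4-58 rose by 0.64 ± 0.15, from 7.18 ± 0.17 to 7.82 ± 0.32 (SD, n = 5), without overlap. Ighv11-1 rose by 0.63 ± 0.15 (limma adjusted p = 0.0137), with CDAA 1 (6.79) just above the highest Std array (6.78). Ighv11-2, the other measured member of a family known from B-1 cells that bind phosphatidylcholine, missed the threshold at 0.43 ± 0.14 (limma adjusted p = 0.0584) but passed without CDAA 4 (0.52) or Std 1 (0.51). Igkv4-72, Igkv4-74 and Igkv4-69 rose by 0.68, 0.54 and 0.52 with overlap between diets. Nearest to the threshold were Igkv4-74 (limma adjusted p = 0.0475) on its inner side and Ighv2-3 (0.0533) on its outer side.

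In a rearranged gene, one joining segment sits between the variable part and the constant region. Igkj1 was at 11.02, 11.48, 11.07, 10.39 and 10.41 with CDAA and 8.66 to 9.46 with Std, a rise of 1.90 ± 0.21 (SE, limma adjusted p = 0.000166). The 2 diets were far apart, and CDAA 2 was highest. Igkj5 rose by 1.57 ± 0.39 (limma adjusted p = 0.0169), with CDAA 2 (8.52) below Std 3 (8.79), and did not pass without CDAA 1 and CDAA 3 (0.91, limma adjusted p = 0.0602). The heavy joining segments Ighj1 and Ighj4 rose by 1.10 and 1.07 with overlap, Ighj3 differed by 0.66 (limma adjusted p = 0.251) and Igkj3 by -0.14. The diversity segment Ighd6-2, a pseudogene in RefSeq, differed by -0.53 (limma adjusted p = 0.0924) and fell without Std 4 (-0.69, limma adjusted p = 0.0216); its signal was 3.48 at most.

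Of the 19 risen members, 11 kept their call when each of the 10 arrays was left out in turn: Igha, Igkc, Ighm, Jchain, Igkj1, Igkj5, Igkv1-88, Ighv4-1, Igkv2-109, Igkv4-58 and Ighv11-1. The other 8 lost it in part of these fits with the direction kept. Igkv1-110 did not pass without CDAA 1, CDAA 3, CDAA 5, Std 2, Std 4 or Std 5 (1.80 to 2.25), and Igkv1-135 without CDAA 1, Std 1, Std 2, Std 4 or Std 5 (1.72 to 2.03). Iglv1 did not pass without any single array but CDAA 2 or Std 3 (1.38 to 1.88). Ighj1 passed only without CDAA 4, CDAA 5 or Std 3 (0.88 to 1.19 in the fits that lost it), and Ighj4 only without CDAA 2, CDAA 4, Std 1 or Std 3 (0.86 to 1.06 in the fits that lost it). The 3 small Igkv4 rises were the least stable. Igkv4-72 passed only without CDAA 2 or CDAA 5 (0.51 to 0.71 in the others), Igkv4-74 only without CDAA 4 or Std 5 (0.42 to 0.59 in the others) and Igkv4-69 only without CDAA 2 (0.40 to 0.55 in the others). The counts without CDAA 1 and without CDAA 3 were 11 and 12 risen members, and they were 12, 11 and 12 without Std 2, Std 4 and Std 5, with Ighd6-2 fallen in the fit without Std 4. Without CDAA 5, 18 members rose and Ighv9-4 fell.

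**Figure D3:**
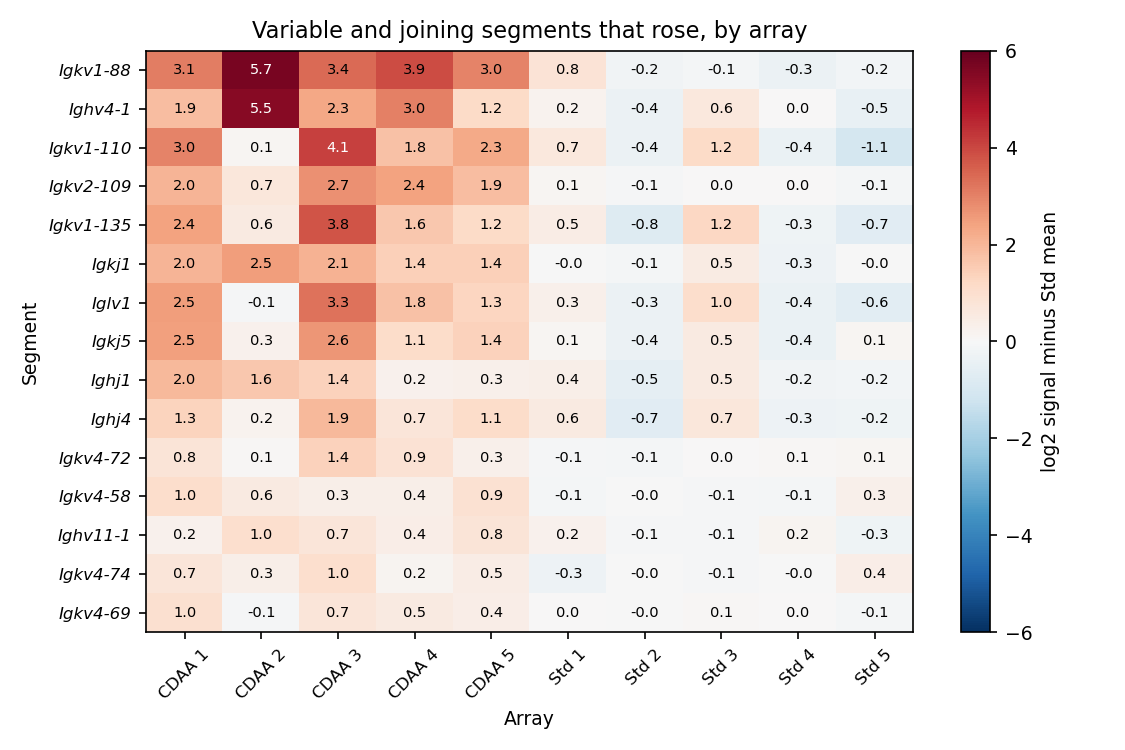
Log2 signal minus the Std mean for the 15 variable and joining segments that rose in limma, by array, in order of their change. CDAA 2 is the highest array for Igkv1-88, Ighv4-1 and Igkj1 and lies near the Std mean for Igkv1-110, Iglv1 and Igkj5.

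The arrays of a diet differed from each other, and many immunoglobulin genes had the same array on top. CDAA 3 was the highest CDAA array for 120 of the 215 members (55.8%), against 23.8% of all genes, and for 8 of the 9 constant-region genes and Jchain. Within Std, Std 3 was highest for 98 members (45.6%), against 19.6% of all genes. The mean over the constant-region genes and Jchain was 6.72, 5.75, 7.43, 5.98 and 5.85 in CDAA 1 to CDAA 5 and 5.62, 4.54, 6.05, 4.60 and 5.06 in Std 1 to Std 5. By this mean the diets overlapped, with Std 3 above CDAA 2, CDAA 4 and CDAA 5. Without Ighg1, a choice made after its value in Std 3 was seen, the mean was 6.02 to 7.59 with CDAA and 4.65 to 5.77 with Std, and the diets did not overlap. The members share their arrays, so these counts describe 10 arrays and not independent events.

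Some variable segments stood out on single arrays. An array was counted when its signal was at least 2 on the log2 scale above the median of its diet. CDAA 3 had 12 such variable segments (6.03%), while 0.158% of all genes stood out on it. CDAA 2 had 2, Igkv1-88 and Ighv4-1, which were also the only 2 of all 24704 genes that stood out on that array. CDAA 1 had 3 of 20 such genes in all (1.51% of variable segments, against 0.081% of all genes). Std 3 had 3 of 107, the most genes of any array (1.51%, against 0.433%). Std 1 had 1 of 3 (0.503%, against 0.0121%). No variable segment stood out on CDAA 4, CDAA 5, Std 2, Std 4 or Std 5. In all, 18 of 199 variable segments stood out, 16 of them on 1 array only. The same count over the arrays was not made for all genes, so these 2 counts have no background.

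Family Igkv5 gave several examples. Igkv5-43 was at 7.99 in CDAA 3 and at 2.84 to 4.42 on the other CDAA arrays, and Igkv5-45 was at 6.07 and 2.14 to 4.06. Igkv5-39 was at 9.15, 4.41, 9.13, 5.89 and 6.97 with CDAA and at 6.27, 4.18, 6.07, 3.50 and 3.61 with Std. Its difference of 2.38 ± 0.90 was exceeded among segments only by Igkv1-88 and Ighv4-1, yet missed the threshold (limma adjusted p = 0.0953). Without CDAA 2 it passed (3.06). Igkv8-30 was at 6.99, 6.17 and 5.46 in CDAA 1, CDAA 3 and CDAA 4 but at 2.64 and 2.66 in CDAA 2 and CDAA 5, and differed by 2.04 ± 0.75 (limma adjusted p = 0.0869); it passed without CDAA 2 (2.57) or CDAA 5 (2.57). The same spread was seen for Igkv1-117 and Igkv10-96, with differences of 1.20 and 1.26 that did not pass (limma adjusted p = 0.289 and 0.290). Each array pools 3 mice, and whether one mouse gave such a signal cannot be told apart from the pool.

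Of 19 measured B cell markers other than immunoglobulins, Cd72 rose and Bank1 and Ralgps2 fell. These were 15.8% of the list, against 16.6% of all genes, and the median change was -0.07. The list mean was 4.47 to 4.67 with CDAA and 4.47 to 4.59 with Std. Ms4a1, which encodes CD20, had signals of 3.70 ± 0.31 and 3.60 ± 0.26 (SD, n = 5), and Cd79a, a chain of the B cell receptor, 5.74 ± 0.23 and 5.53 ± 0.36. Neither passed (limma adjusted p = 0.762 and 0.494). The mean of Ms4a1 over all arrays (3.65) lay below the median of the gene means, where signal was not known to exceed background. Of the 19 markers, 11 lay above it. Cd72, a lectin of B cells that macrophages also carry, rose by 1.94 ± 0.39 (limma adjusted p = 0.0052), and the adaptor Bank1 and the exchange factor Ralgps2 fell by 0.76 and 0.59.

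Of 19 plasma cell markers, 5 rose (26.3%, against 7.49% of all genes) and 1 fell (5.26%, against 9.13%), with a median change of 0.15 and a list mean of 5.15 to 5.45 with CDAA and 4.95 to 5.09 with Std. Slamf7, a receptor of plasma cells and of other leukocytes, rose by 2.65 ± 0.38 (limma adjusted p = 0.00079) and Sdc1, the syndecan CD138, by 0.66 ± 0.14 (limma adjusted p = 0.00676). Prdm1, Sec11c and Ell2 rose by 0.44, 0.62 and 0.58, and the receptor Cd27 fell by 1.05. Several other members of the list did not pass. Mzb1, a chaperone of antibody assembly, was at 3.81 ± 0.19 and 3.90 ± 0.22 (SD, n = 5), and Tnfrsf17, the survival receptor BCMA, at 2.50 ± 0.10 and 2.62 ± 0.21. Over all arrays their means (3.86 and 2.56) lay below the median of the gene means, where signal was not known to exceed background. Of the 19 markers, 11 lay above it. Xbp1, the factor of the secretory programme that many secretory cells use, was at 9.06 ± 0.17 and 9.08 ± 0.21. Without CDAA 1 and CDAA 3 the list had 3 changed genes, 2 risen and 1 fallen, and Prdm1 (0.32), Sec11c (0.57) and Ell2 (0.48) did not pass. Prdm1 also did not pass without CDAA 1, CDAA 3, CDAA 4, Std 1, Std 2, Std 4 or Std 5, at 0.38 to 0.48.

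Among 15 receptors and carriers of immunoglobulin, 2 rose and 2 fell (26.7% in all, against 16.6% of all genes). Lgals3, a galectin that binds IgE among other ligands, rose by 2.62 ± 0.36 (limma adjusted p = 0.000565) and Fcgr1, the high-affinity IgG receptor, by 1.15 ± 0.34 (limma adjusted p = 0.0363). Fcgr1 did not pass without CDAA 1, CDAA 3, Std 1, Std 4 or Std 5, at 0.86 to 1.16. Fcgrt, the neonatal Fc receptor that spares IgG from breakdown, fell by 0.87 ± 0.17 (limma adjusted p = 0.00408), and the inhibitory Fcgr2b fell by 0.51. Fcgr2b passed only without CDAA 2 or CDAA 4 when single arrays were left out, and was at -0.54 to -0.41 in the fits that lost it. Pigr, the polymeric immunoglobulin receptor, which carries IgA across epithelium, was at 6.79 ± 0.82 and 5.85 ± 0.56 (SD, n = 5) and did not pass (difference 0.93 ± 0.37, limma adjusted p = 0.109).

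Of 21 genes that attract B-lineage cells or keep them alive, 2 rose (9.52%, against 7.49% of all genes) and 1 fell (4.76%, against 9.13%). Cxcl13, the chemokine that draws B cells into follicles, fell by 4.14 ± 0.24 (limma adjusted p = 4.8e-06). Ltb, a lymphotoxin chain, and Cxcr4, the receptor for Cxcl12, rose by 2.02 ± 0.27 and 1.88 ± 0.41 (limma adjusted p = 0.00049 and 0.00824). Tnfsf13b, the B cell survival factor BAFF, missed the threshold at 0.49 ± 0.19 (limma adjusted p = 0.111) but passed without CDAA 4 (0.63). None of 11 genes of recombination and class switching was called by limma (2 at an unadjusted p under 0.05). Only 4 of the 11 had a mean above the median signal. Mybl1 was nearest to passing (-0.59, limma adjusted p = 0.0526) and passed without CDAA 2 (-0.71).

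Of 12 T cell markers, Il7r, the interleukin-7 receptor, rose by 2.65 ± 0.36 (limma adjusted p = 0.000573), and the list had a median change of 0.10 (8.33% risen, against 7.49% of all genes). Of 11 plasmacytoid dendritic cell markers, Irf8 rose by 0.91 and Bst2 fell by 0.53 (18.2% called, against 16.6%). Bst2 did not pass without CDAA 1, CDAA 3, Std 1, Std 2 or Std 5, at -0.53 to -0.44.

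**Figure D4:**
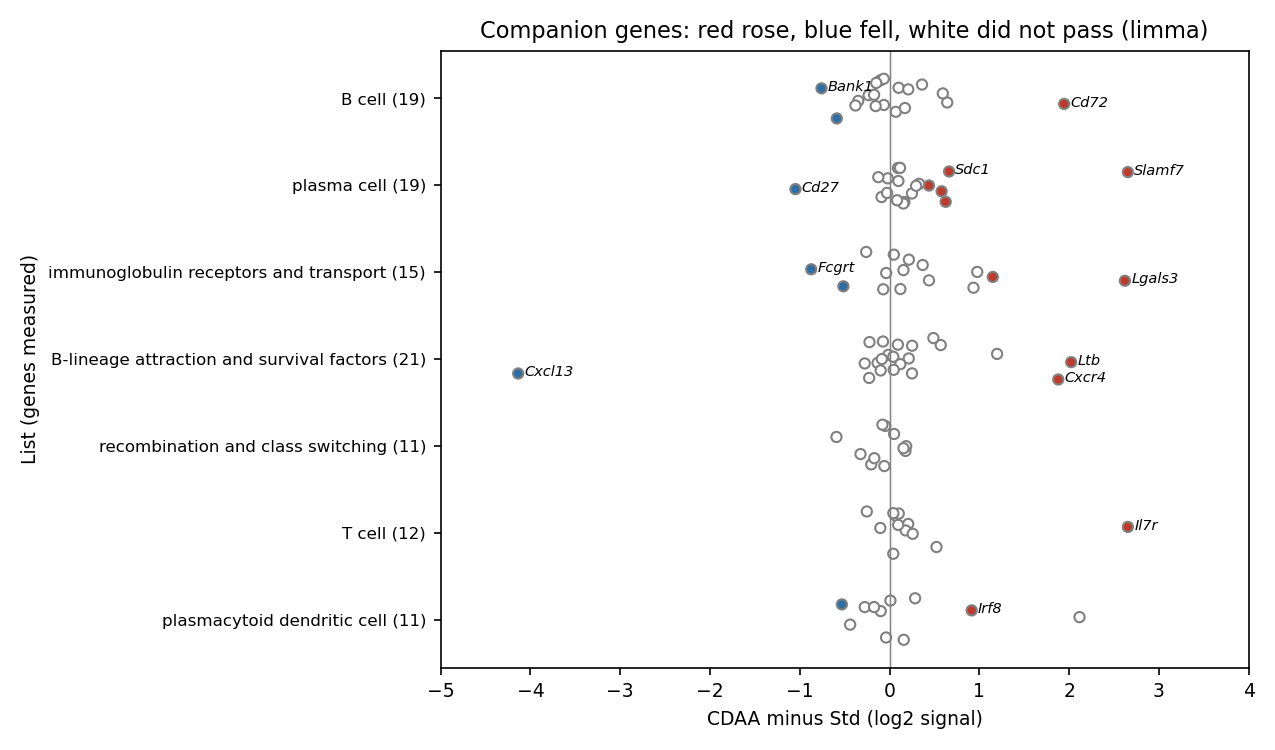
CDAA minus Std difference in log2 signal for genes of 7 companion lists, with the number measured in parentheses; red points rose, blue points fell and white points did not pass in limma. Cxcl13 lies farthest to the left (-4.14), and the B cell points gather around 0.

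Markers of several other cell types moved between the diets in the same arrays. All 6 cholangiocyte markers rose (100%, against 7.49% of all genes), with a list mean of 7.32 to 8.23 with CDAA and 4.55 to 5.69 with Std. Std 1 and Std 3 were the highest Std arrays in this list, as for Igkc and Jchain, but CDAA 1 and not CDAA 3 was the highest CDAA array. Of 8 sinusoidal endothelial markers 5 fell (62.5%), and of 7 Kupffer cell markers 5 fell (71.4%), against 9.13% of all genes. The Kupffer cell list had a mean of 7.10 to 7.84 with CDAA and 8.25 to 9.38 with Std. The part of these shifts in the immunoglobulin values was not tested.

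**Figure D5:**
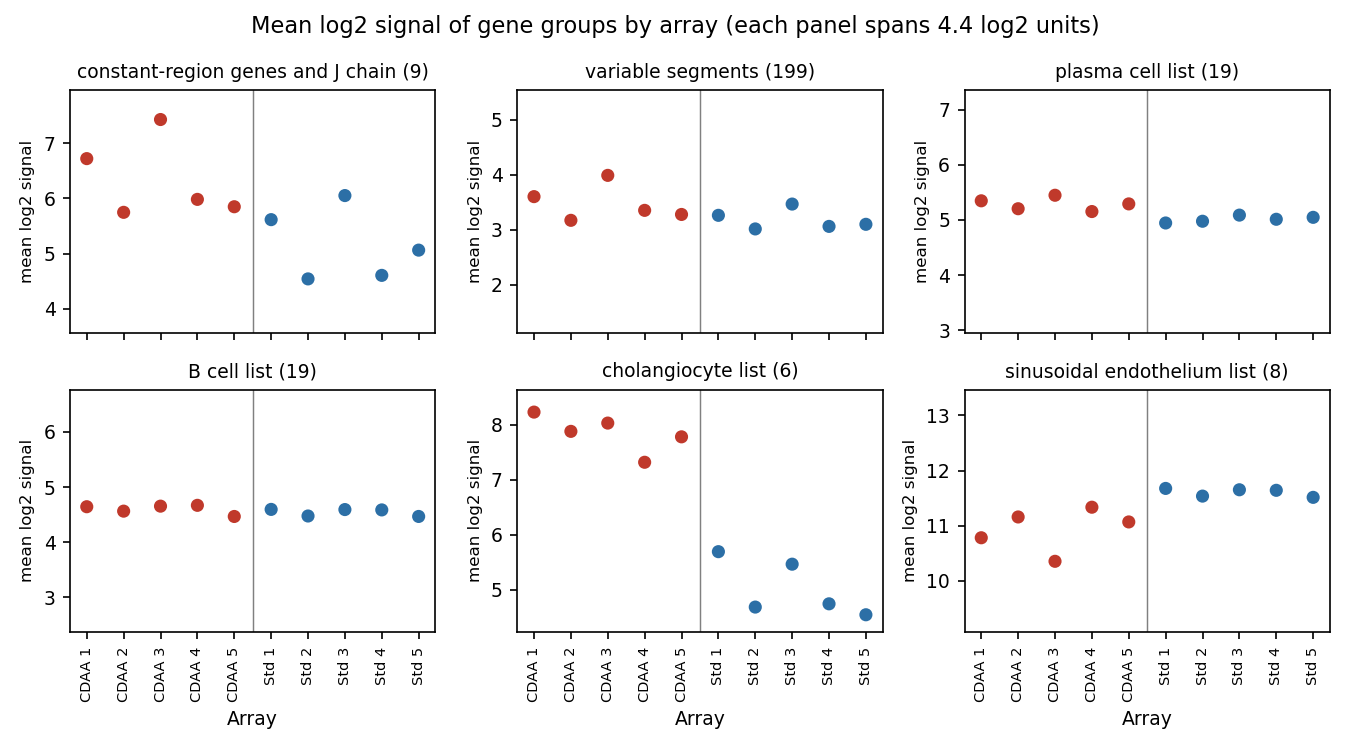
Mean log2 signal of 6 gene groups by array, CDAA in red and Std in blue, every panel spanning the same range of log2 units, with the number of genes in parentheses. The constant-region genes and Jchain vary widely within each diet and are highest in CDAA 3 (7.43), while the B cell list stays between 4.47 and 4.67.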

How the data were processed

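The authors deposited log2 probe set signals, for which the submitters' processing notes name RMA; its version and the genome build are not given in the sources used here. RMA corrects background, quantile-normalises arrays and fits a level per probe set. Once sorted, any pair of arrays differed by at most 0.00186, and identical values made up at most 0.244% of a pair. No detection call, slide or date is used here, and for arrays their number limits the precision.

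Of 25428 probe sets, 24705 had 1 gene symbol in the platform annotation, 0 had several and 723 had none. For the 1 gene with 2 or more probe sets the brightest was kept. CDAA was compared with Std by lmFit and eBayes of limma 3.58.1 (R 4.3.3), two-sided, over all 24704 genes. Single values were compared by exact permutation in SciPy 1.17.1. The arrays are pools of 3 mice that the labels call biological replicates, so the spread behind each p-value is that between pools.

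Named genes were, by rule, every constant-region gene and Jchain, up to 8 segments that rose or fell most without overlap (6 rose and 0 fell), up to 3 genes per companion list (or the one nearest to passing) and 10 fixed genes, of which 1 is not reported here. Prdm1, Sec11c, Ell2, Fcgr2b and all other segments given with values were chosen after their values were seen, as were the pairs of constant-region genes and the 2 log2 limit for single arrays. Members and lists were chosen with earlier results of these data known.

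The fit was tested on simulated data (24704 genes, 200 of them changed) and recovered 26% of changes of 0.5, 88.5% of changes of 1 and 98% of changes of 2 on the log2 scale. The changed genes were drawn from all genes, each with its own SD. Immunoglobulin genes above the median signal had a median SD of 0.76 with CDAA and 0.44 with Std. For all genes above it these were 0.25 and 0.17, so the recovery rates cannot be carried over to the members. Alternatives were a replicate block, other normalizations, filters, variance models and weights, all probe sets, limma's treat at 0.5, and arrays left out.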

Additional observations from a re-analysis of the deposited data

Results flagged for a closer look

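For 4 of the named genes, 1 array of a diet lay farther from its nearest neighbour than Dixon's critical share (0.71) of that diet's range. Chance does this in about 1 of 20 groups. All 61 named genes were screened in each diet, so several such values were expected by chance. Ighg1 was at 8.30 in Std 3 against 2.82 to 4.39 in the other Std arrays, and its difference changed sign without that array. Igkv1-88 was at 4.45 in Std 1 against 3.30 to 3.53. Igkv4-58 was at 7.48 in Std 5 against 7.07 to 7.16. Cxcl13 was at 3.59 in CDAA 2 against 4.25 to 4.38 in the other CDAA arrays. The cause of these values was not tested.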

How the results depend on the processing

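Of the 61 named genes, 17 kept call and direction in all 20 other fits. Against a log2 change of 0.5 (treat), 452 of all genes (4106 otherwise), 5 immunoglobulin genes, 2 of the constant-region genes with Jchain, 2 variable segments, 0 B cell, 1 plasma cell, 1 receptor and transport and 0 plasmacytoid dendritic cell genes passed, and Jchain (2.19) did not (limma treat adjusted p = 0.0559). Without CDAA 1 and CDAA 3, the counts were 2612 of all genes, 10 immunoglobulin genes, 6 variable segments, 3 plasma cell, 2 receptor and transport and 1 plasmacytoid dendritic cell genes. That fit has fewer arrays.

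The replicate number as a block gave 33 immunoglobulin genes (32 rose, Igkv4-86 fell, 18 shared with the 19), 23 variable segments and 5 B cell genes. With the block, 32 of 215 members rose, against 1893 of all 24704 genes, and 1 fell, against 2285. The risen shares of members and of all genes were thus farther apart than in the main fit. The difference was not tested. Same-numbered arrays deviated together with correlations of 0.0164 to 0.249, and 6 of 10 arrays correlated best with their own number. By the mean of the constant-region genes and Jchain, numbers 3 and 1 were highest and number 2 lowest in both diets. With the block the SE was 0.17 for Igha, 0.12 for Igkc and 0.21 for Jchain, against 0.34, 0.33 and 0.43 without it. For numbers 1 and 5 the correlation was under 0.1. The main fit used no block because no label ties the arrays. Whether the numbers pair the arrays is not known, and the correlations and SEs do not decide it. The block also called Ighg2b (1.00, limma adjusted p = 0.0253), Ighj3 (0.66), Ighv11-2 (0.43), Igkv5-39 (2.38), Igkv8-30 (2.04), Igkv10-96 (1.26), Igkv1-117 (1.20) and Pigr (0.93). With fewer genes tested, the B cell count was 5 (dimmest 25% left out) or 6 (all below the median left out). With all below the median left out, 22 of 64 immunoglobulin genes rose, against 1841 of all 12352 genes tested. The recombination count was 1 without the dimmest and 1 with an intensity trend and robust variance.

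Leaving out each array in turn gave 11 to 22 immunoglobulin genes and 5 to 15 variable segments. It gave 3 to 5 B cell, 2 to 5 receptor, 3 to 5 attraction and survival, 0 to 2 recombination, 1 to 2 T cell and 1 to 3 plasmacytoid dendritic cell genes. The 4 uncalled differences that crossed 0 in these fits were Ighg1 (-0.76 to 0.61), Ms4a1 (-0.020 to 0.18), Xbp1 (-0.079 to 0.045) and Igkj3 (-0.32 to 0.083). Xbp1 was also 0.067 with array weights, and Ighg3 was -0.094 without CDAA 1 and CDAA 3. The cause was not tested. Dim probe sets limit the variable segments.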
